A study of Homo sapiens with 6 samples.

Results

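The EGR, NR4A and IER immediate early genes analysed were 10 genes chosen by name, namely EGR1, EGR2, EGR3, NR4A1, NR4A2, NR4A3, IER2, IER3, IER5 and ARC. They were matched by symbol in the deposited expression table, which listed 8 of them, and NR4A3 and ARC were matched through the Ensembl identifier in a gene annotation. All 10 were among the 57905 genes of the count table, and 9 were among the 16622 genes tested. The RNA-SEQ libraries were from NALM6, a human cell line of B cell precursor acute lymphoblastic leukemia, and the study asked what the covalent CDK7 inhibitor THZ1 does to such leukemia cells. There were 3 libraries of cells given the solvent DMSO and 3 of cells given THZ1 at 500 nM, all at 24 h. All libraries came from this 1 cell line, and no shorter treatment was measured in them. The labels do not say that the libraries of a treatment came from separate cultures, so p-values measure only the spread between these libraries, which may be technical.

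Immediate early genes are switched on within minutes of a growth, antigen or stress signal by transcription factors already present in the cell, and their transcripts are usually short-lived. The EGR proteins are zinc finger transcription factors that bind GC-rich DNA, the NR4A proteins are orphan nuclear receptors, and both families respond to antigen receptor signals in lymphocytes. IER2, IER3 and IER5 belong to a loose group of short stress-responsive and growth factor-responsive genes, and ARC is best known as a synaptic gene of neurons. CDK7, the target of THZ1, is the kinase of the general transcription factor TFIIH and also activates the cell cycle kinases.

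The DNA just upstream of these genes is shown first, since signal-responsive factors bind there. RefSeq promoter windows (GRCh38.p14, 250 bases before to 50 bases after a start) were matched for 6 of the 10 genes, with 9 windows in all. NR4A2, IER3, EGR3 and ARC had no window in the table used. The CArG box, the motif bound by serum response factor (SRF), was found on either strand in 2 of the 9 windows, against 1.29% of all 35116 windows. It lay 105 and 83 bases before the EGR1 start and 71 bases before 1 of the 3 EGR2 starts. TGACG, the core of the CREB family's site, was found on either strand in 4 windows, those of EGR1, NR4A3, IER2 and the same EGR2 start, against 24.6% of all windows. The 250 bases before these 4 starts are printed 5′ to 3′ in the direction of transcription, with CArG boxes and TGACG (or its complement CGTCA) in capitals, because they are the windows that hold either motif.
EGR1, chr5:138465229-138465478, plus strand: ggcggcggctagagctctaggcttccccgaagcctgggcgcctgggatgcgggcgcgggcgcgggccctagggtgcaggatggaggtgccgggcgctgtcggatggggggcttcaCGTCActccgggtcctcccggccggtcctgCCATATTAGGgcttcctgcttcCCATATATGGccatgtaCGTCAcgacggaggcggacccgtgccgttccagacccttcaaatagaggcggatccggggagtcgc
EGR2, chr10:62816367-62816616, minus strand: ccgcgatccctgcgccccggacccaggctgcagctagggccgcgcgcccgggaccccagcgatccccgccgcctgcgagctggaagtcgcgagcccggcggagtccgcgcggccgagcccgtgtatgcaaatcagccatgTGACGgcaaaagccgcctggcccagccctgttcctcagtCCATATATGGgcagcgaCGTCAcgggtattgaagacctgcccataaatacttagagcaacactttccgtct
NR4A3, chr9:99821635-99821884, plus strand: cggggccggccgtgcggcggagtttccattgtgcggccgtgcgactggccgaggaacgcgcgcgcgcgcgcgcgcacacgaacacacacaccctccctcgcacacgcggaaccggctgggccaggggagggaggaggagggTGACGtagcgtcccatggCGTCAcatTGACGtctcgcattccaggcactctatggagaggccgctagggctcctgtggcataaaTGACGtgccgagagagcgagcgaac
IER2, chr19:13150161-13150410, plus strand: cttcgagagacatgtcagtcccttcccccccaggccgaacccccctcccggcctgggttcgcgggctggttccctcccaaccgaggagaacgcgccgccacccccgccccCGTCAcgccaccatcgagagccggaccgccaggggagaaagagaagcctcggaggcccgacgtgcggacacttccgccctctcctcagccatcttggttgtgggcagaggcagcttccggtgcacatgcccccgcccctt
NR4A3 had 4 copies of TGACG and no CArG box, whereas EGR1 and EGR2 had 2 copies of TGACG each beside their CArG boxes. The 2 NR4A1 windows and the IER5 window held neither motif. GCGNGGGCG, the site of EGR proteins, was found in the EGR1 window and in another EGR2 window, against 9.43% of all windows. Neither the full CREB site TGACGTCA (1.85% of all windows), the NR4A site AAAGGTCA (1.22%) nor TATAAA (11.5%) was found in any of the 9 windows, and GGGCGG, the GC box, was found in 5 (45.0%), all searched on both strands. A match describes these letters only, and binding was not measured here.

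Several of the genes share a compact structure, which the choice by name did not use. By the gene annotation on GRCh37, the genome build to which the authors mapped the reads, EGR1 lies at chr5:137801168-137804992, IER2 at chr19:13261225-13265725, IER3 at chr6:30710976-30712325 and IER5 at chr1:181057836-181062036. The NR4A genes are longer, with NR4A1 at chr12:52416616-52453291, NR4A2 at chr2:157180949-157198860 and NR4A3 at chr9:102584137-102629173, and EGR2 lies at chr10:64571756-64578927. The canonical transcript spanned at most 10000 bases of genome in 9 of the 10 genes, with NR4A3 as the exception, against 23.9% of the protein-coding genes tested. It had 1 or 2 exons in 6 of the 10, the EGR and IER genes, against 6.27%, and IER5 had 1 exon. The NR4A1 transcript had 7 exons, those of NR4A2 and NR4A3 had 8 each, and that of ARC had 3. AUUUA, the core of AU-rich elements of unstable transcripts, occurred in the 3′ UTRs of IER5 and NR4A3 10 times each and in that of IER3 6 times, and did not occur in those of IER2 and ARC. Its density was above the median of 1.565 per 1000 bases in 6 of the 10 genes.

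The RNA-SEQ results displayed higher levels of all 9 tested genes in THZ1-treated than in DMSO-treated cells. The increase lay between 5.37-fold (NR4A1) and 69.8-fold (EGR1), and in each of the 9 every THZ1-treated library was above every DMSO-treated library. This has to be read against a very broad change: 43.5% of all genes tested were called higher with THZ1 and 41.1% lower (adjusted p below 0.05), 24.6% were higher by a log2 fold change of at least 1.5, and 43.4% were higher with no overlap between treatments. Across the genes tested the log2 fold change had a median of 0.03, with quartiles of −0.90 and 1.46 and a 95th percentile of 5.49. Only 5 of the 9, NR4A1, NR4A2, IER2, IER3 and IER5, reached the filter on low counts in all 3 DMSO-treated libraries. EGR1 reached it in 2 of them and EGR2, EGR3 and NR4A3 in 0. These 4 genes passed through the THZ1-treated libraries, which favours a difference and leaves the count of 9 as a description. In bulk RNA, a change in the share of cells that express a gene cannot be told apart from a change in its RNA per cell. All levels and fold changes here are relative to the other RNA of a library, so the absolute amount of RNA per cell was not measured.

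**Figure D1:**
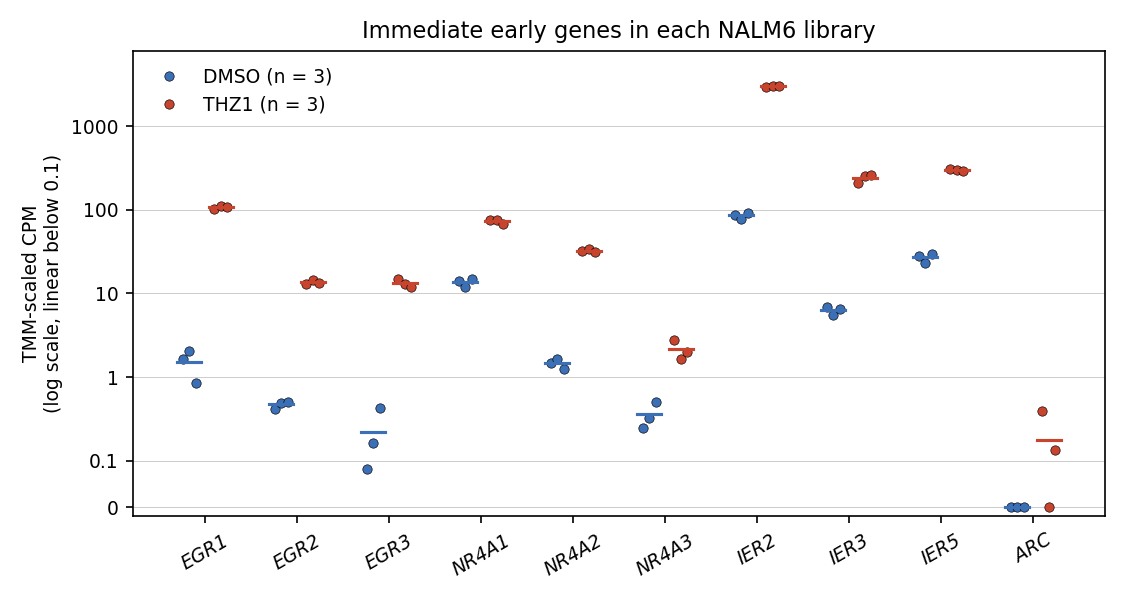
Level of the 10 immediate early genes in each NALM6 library, as TMM-scaled CPM, on a log axis that is linear below 0.1. Points are libraries and bars are means of 3 libraries. All THZ1 points lie above all DMSO points in 9 genes, while ARC is at 0 in the 3 DMSO-treated libraries and in 1 THZ1-treated library.

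The libraries held between 7876402 and 11164840 counts on genes, and the 3 libraries with DMSO were all deeper than the 3 with THZ1. A count of 3, taken as the detection floor, was worth at most 0.253 CPM with DMSO (a count scaled to the size of its library by TMM) and 0.415 with THZ1, and covers counting error only. All 12 matched B cell precursor markers were expressed, with a summed level of 4133 to 4269 CPM with DMSO and 2192 to 2257 CPM with THZ1. 9 of the 12 were called lower, against 41.1% of all genes tested. CD22 fell the most (log2 fold change −2.56) and IGLL1 next (−2.26). CD79A (1.33) and RAG1 (0.19) were called higher, against 43.5% of all genes tested. Of the 19 matched markers of other lineages 12 had at most 3 counts in every library, with CD8A, NCAM1, PPBP and PF4 among those at 0 in all. Their summed level was 15.3 to 17.2 CPM with DMSO and 38.0 to 43.2 CPM with THZ1. CD14 (3.75), COL1A1 (2.08) and NKG7 (0.49) were called higher, LYZ was called lower (−0.83) and MPO was not called. CD14 passed the filter on low counts only through the THZ1-treated libraries and LYZ only through the DMSO-treated libraries, which favours these calls. The part of these marker changes in the values below was not tested.

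EGR1, the founding member of the EGR family and a target of SRF, was first of the 9 by log2 fold change in this fit, but not without DMSO replicate 3 (5.82, against 6.59 for EGR3) or in limma on log2(FPKM + 1) (4.84, against 4.89 for IER3). It had 20, 25 and 10 counts in the DMSO-treated libraries and 769, 811 and 808 counts in the THZ1-treated libraries. The DMSO replicate 3 was lowest, and the lowest THZ1-treated library was 49.4 times the highest DMSO-treated library in CPM. The mean rose from 1.52 ± 0.614 to 107 ± 5.62 CPM (SD, n = 3 each), a log2 fold change of 6.13 ± 0.15 (SE, adjusted p = 3.4e-26, quasi-likelihood test of edgeR, Benjamini-Hochberg adjusted across the tested genes, as for all adjusted p-values below). By this value EGR1 ranked 607 of 16622, and 548 of the 606 genes above it had at most 3 counts in every DMSO-treated library. When the test was limited to the 12808 genes that had 10 or more counts in each library, EGR1 ranked 6. EGR1 only just met that limit, with 10 counts in DMSO replicate 3, and genes with fewer counts in any library were left out of this rank.

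EGR2, which is needed for myelination and, with EGR3, restrains lymphocyte activation, was near the floor without THZ1. It had 5, 6 and 6 counts with DMSO and 99, 105 and 100 with THZ1, so the libraries of each treatment were close to each other. Its mean was 0.470 ± 0.050 CPM and then 13.6 ± 0.794 CPM, which is 28.3-fold (95% interval 19.4 to 41.2, adjusted p = 5.8e-17).

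EGR3, a target of the calcium and NFAT pathway in lymphocytes, had 1, 2 and 5 counts with DMSO and 113, 95 and 90 with THZ1. The DMSO-treated libraries together held few counts, and replicate 3 held most of them. The log2 fold change was 5.83 ± 0.33 (57.1-fold, adjusted p = 7.7e-17), and it was 6.59 without DMSO replicate 3 and 5.44 without DMSO replicate 1. The call was kept in both cases. A gene on the opposite strand that overlaps EGR3, ENSG00000253125, had 1, 1 and 0 counts with DMSO and 19, 24 and 19 with THZ1.

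Summed over the 3 EGR genes, the level was 1.77 to 2.7 CPM with DMSO and 129 to 140 CPM with THZ1. EGR1 held 47.6% to 76.9% of the family's CPM in the DMSO-treated libraries, the lowest in replicate 3, and 78.4% to 81.0% in the THZ1-treated libraries. The log2 ratio of EGR1 to EGR2 was 1.60 ± 0.747 with DMSO and 2.97 ± 0.0354 with THZ1 (SD, n = 3, exact permutation test, two-sided, p = 0.1, which is the smallest that 3 libraries against 3 allow). The same p was found for each of the 4 ratios tested within families, and it remained 0.1 after adjustment.

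Among the NR4A receptors, which act without a known natural ligand and bind DNA as monomers or with RXR partners, NR4A1 was the most expressed. NR4A1 had 172, 144 and 178 counts with DMSO and 573, 553 and 512 with THZ1. The treatments were well apart, with means of 13.7 ± 1.68 and 73.4 ± 4.37 CPM (SD, n = 3 each). Its log2 fold change was 2.42 ± 0.10 (5.37-fold, adjusted p = 8.4e-20), and it ranked 2920 of 16622 and 688 of those 12808.

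NR4A2, known for its part in dopaminergic neurons and also induced in activated lymphocytes, had 18, 20 and 15 counts with DMSO and 247, 243 and 236 with THZ1. The spread within each treatment was small against the change. Its level rose from 1.46 ± 0.188 to 32.6 ± 1.05 CPM, a log2 fold change of 4.46 ± 0.17 (22.0-fold, adjusted p = 6.3e-21).

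NR4A3, the rarest of the NR4A genes, had 3, 4 and 6 counts with DMSO and 21, 12 and 15 with THZ1. All its libraries held few counts, and the THZ1-treated libraries spread from 1.66 to 2.76 CPM. Its fold change of 5.80 had a wide 95% interval of 3.09 to 10.9 (adjusted p = 4.9e-06), so its change could not be told apart from that of NR4A1. The order of these 2 genes turned without DMSO replicate 1 (2.31 for NR4A3, 2.44 for NR4A1) and without THZ1 replicate 1 (2.31 and 2.40).

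Within the NR4A family, NR4A2 made up 7.54% to 11.9% of the summed NR4A level in CPM with DMSO and 29.4% to 30.9% with THZ1, while NR4A1 went from between 85.7% and 89.4% to between 67.1% and 68.4%. The log2 ratio of NR4A2 to NR4A1 was −3.22 ± 0.362 with DMSO and −1.17 ± 0.0498 with THZ1, with no overlap (exact permutation test, p = 0.1, the smallest possible). The summed level was 13.8 to 16.8 CPM with DMSO and 102 to 112 CPM with THZ1.

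IER2, a short nuclear protein gene induced by growth factors, was by far the most abundant of the genes. It had 1063, 943 and 1097 counts with DMSO and 22436, 21950 and 22559 with THZ1. The THZ1-treated libraries were within a narrow range, and IER2 alone took 0.274% of their counts. Its level went from 85.9 ± 7.83 to 3002 ± 45.8 CPM, from rank 2494 to rank 22 among the genes tested by CPM, which is not a comparison per length. The log2 fold change was 5.13 ± 0.08 (34.9-fold, adjusted p = 3.5e-30).

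Counting without strand cannot tell IER2 apart from its antisense partner, and the strand setting of the counting is not given in the sources used here. ENSG00000267598, which overlaps IER2 by 1123 bases on the opposite strand, had 763, 732 and 821 counts with DMSO and 18930, 18395 and 19200 with THZ1 (log2 fold change 5.30 ± 0.08). These amounted to 71.8% to 77.6% of the IER2 counts with DMSO and 83.8% to 85.1% with THZ1. The IER2 value is therefore uncertain to the extent that reads of the overlap were assigned to the wrong gene or to neither gene. Exons of EGR3, IER3 and NR4A1 also overlap antisense genes that were counted, so the same limit applies to these genes and their antisense partners. ENSG00000287296, also antisense to IER2, and ENSG00000289487, which overlaps EGR2 on the same strand, were annotated but had no row in the count table.

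IER3, a stress-responsive regulator of cell survival and of ERK and PP2A signals, had 84, 68 and 77 counts with DMSO and 1574, 1854 and 1975 with THZ1. THZ1 replicate 1 was the lowest of its treatment, at 207 CPM against 257 and 264. The log2 fold change was 5.26 ± 0.11 (38.2-fold, adjusted p = 1.2e-27). Its antisense gene IER3-AS1 had 21, 11 and 25 counts and then 335, 385 and 436 (log2 fold change 5.03 ± 0.18), whereas HCG20, also antisense, had at most 3 counts in any library.

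IER5, a cofactor that links PP2A to the heat shock factor HSF1, had 338, 281 and 354 counts with DMSO and 2317, 2185 and 2203 with THZ1. It rose from 26.9 ± 3.53 to 301 ± 5.35 CPM, a log2 fold change of 3.48 ± 0.09 (11.2-fold, adjusted p = 5.6e-26). This was the smallest increase of the 3 IER genes. IER5 made up 21.7% to 23.2% of the summed IER level in CPM with DMSO and 8.24% to 8.80% with THZ1. The log2 ratio of IER2 to IER5 was 1.68 ± 0.0612 and then 3.32 ± 0.0410, and that of IER3 to IER5 was −2.09 ± 0.102 and then −0.32 ± 0.212, both without overlap (exact permutation test, p = 0.1, the smallest possible).

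ARC was not detectable at this depth with DMSO, with 0 counts in all 3 libraries, and had 3, 0 and 1 counts with THZ1. No library of either treatment exceeded the floor of 3 counts, so ARC was not tested and no fold was given. Among other overlapping genes, NR4A1AS, antisense to NR4A1, had 44, 33 and 69 counts with DMSO and 133, 140 and 113 with THZ1 (log2 fold change 2.09 ± 0.20), and STX17-DT, which runs opposite to NR4A3 without sharing exons, had at most 4 counts in any library.

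**Figure D2:**
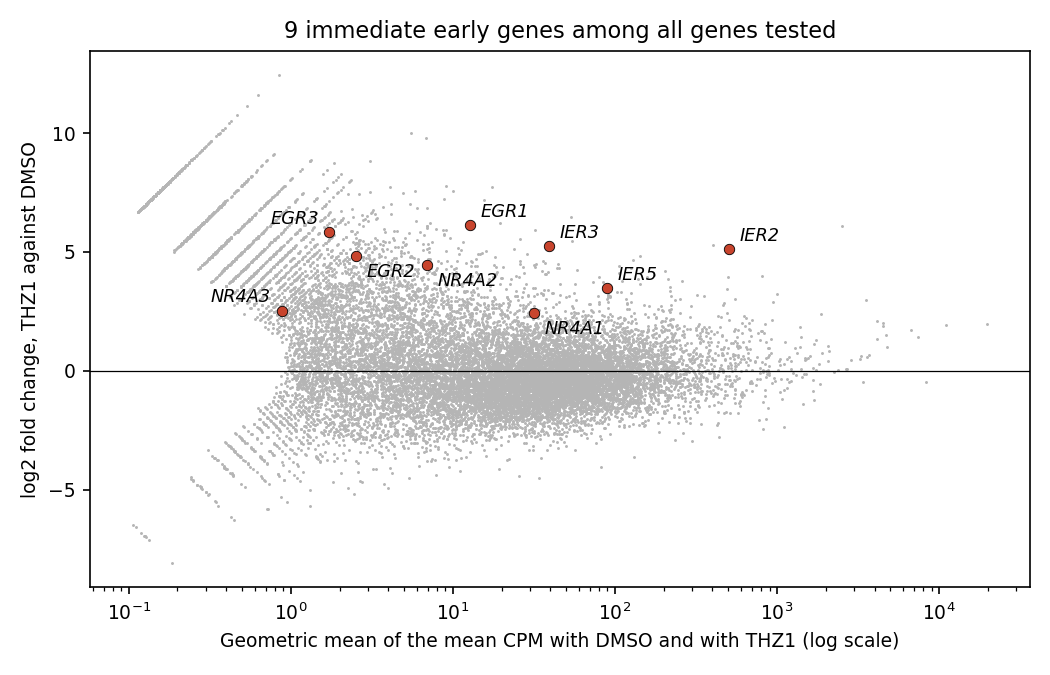
Log2 fold change of THZ1 against DMSO for all 16622 genes tested (grey) and the 9 immediate early genes tested (red), against the geometric mean of the mean CPM of the treatments on a log axis (a group mean under 0.01 is set to 0.01). Of the 9, IER2 has the highest CPM and NR4A3 the lowest, and the log2 fold changes lie between 2.42 (NR4A1) and 6.13 (EGR1).

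Levels between genes were compared per transcript length, on the deposited FPKM values, for the 8 genes in that table. Libraries of 1 treatment had nearly the same sorted values there, with a median difference of 0.0015 to 0.0017 on the deposited log2 scale against 0.0870 to 0.0902 between treatments, and the step that made them alike is not given in the sources used here. The spread between libraries in FPKM, the overlaps below and limma's p-values on these values are relative to that step. With DMSO the order of the mean FPKM was IER2 (79.0), IER5 (18.3), IER3 (13.6), NR4A1 (6.13), EGR1 (2.10), NR4A2 (1.72), EGR2 (0.941) and EGR3 (0.685). EGR1 and NR4A2 overlapped between libraries and were not ordered, whereas no other neighbours overlapped. With THZ1 the order was IER2 (2161), IER3 (431), IER5 (176), EGR1 (86.6), NR4A1 (26.1), NR4A2 (21.0), EGR2 (8.53) and EGR3 (5.58), and no neighbours overlapped. IER3 thus passed IER5, and EGR1 passed NR4A1. By the same table IER2 went from rank 1579 to rank 36 among all 16730 genes and EGR1 from 13105 to 1462. In CPM per 1000 bases of merged exons, each treatment gave the same order of these 8 as in FPKM, and NR4A3, at 0.0571 with DMSO and 0.339 with THZ1, stood beside EGR3, with which it overlapped only with DMSO.

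**Figure D3:**
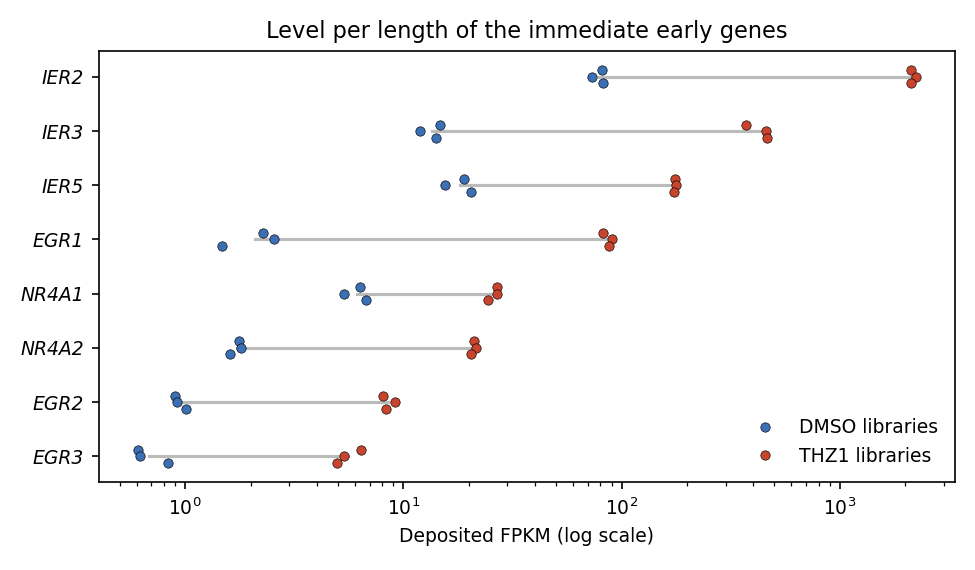
Deposited FPKM of the 8 immediate early genes in the expression table, on a log axis, with 1 point per library and a line joining the means of the treatments. IER3 lies above IER5 and EGR1 above NR4A1 with THZ1 (red), and the reverse holds with DMSO (blue).

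For genes with few counts the size of the change depended on which deposited table was used. The ratio of mean FPKM between treatments was 8.15 for EGR3, against a ratio of mean CPM of 59.9, and likewise 9.06 for EGR2 against 29.0, 12.2 for NR4A2 against 22.2, and 41.3 for EGR1 against 70.7. For IER2 the values were 27.4 and 34.9. With limma on log2(FPKM + 1), the log2 fold changes were 1.96 for EGR3, 2.29 for EGR2, 3.01 for NR4A2 and 4.84 for EGR1, and all 8 genes were still called higher. These values also depended on the pseudocount. With 0.1 in place of 1 they were 2.86 for EGR3, 3.05 for EGR2, 3.53 for NR4A2 and 5.34 for EGR1. The 823 genes of the FPKM table with 0 counts in all DMSO-treated libraries had a median FPKM of 0.262 there, not 0. Over genes with a mean of 1 to 10 counts with DMSO, the FPKM was a median of 4.60 times the CPM per 1000 bases, against 2.85 times over genes with at least 100 counts.

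**Figure D4:**
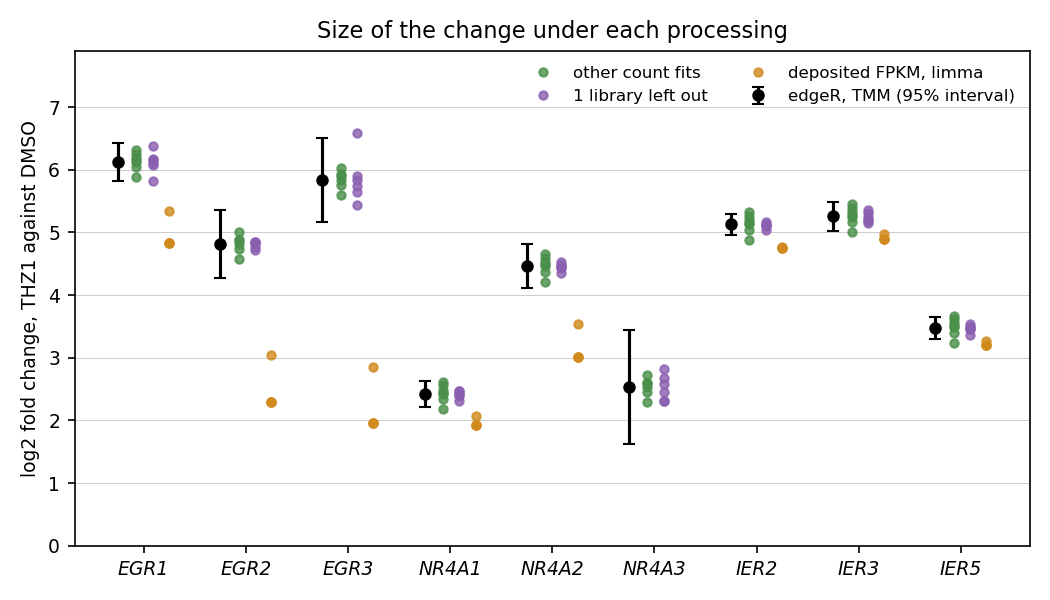
Log2 fold change of each tested immediate early gene under the main fit (black, with its 95% interval), other fits of the counts, fits without 1 library, and limma on deposited FPKM (pseudocount 1 or 0.1). All values are above 0, NR4A3 has no FPKM value, and the FPKM values of EGR2 and EGR3 lie well below those from the counts.

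The wider immediate early program was described with a list of 42 other immediate early genes, among them the FOS and JUN families. Of the 38 tested, 35 were called higher (92.1%, against 43.5% of all genes tested), 1 lower (2.63%, against 41.1%) and 2 not. Across the alternatives 29 to 36 were called higher and 0 to 4 lower, with 33 higher and 4 lower in limma on FPKM. Of the 35, 6 (FOS and PLK2 among them) passed the filter on low counts only through the THZ1-treated libraries. This favours a higher call, and the count and the median are descriptions. The median log2 fold change was 2.78, against 0.03 over all genes tested. Of the 38, 26 were called higher by at least 1.5 on the log2 scale, against 24.6% of all genes tested. FOS, the partner of JUN in the AP-1 factor, had 5, 12 and 5 counts with DMSO and 975, 1010 and 1023 with THZ1 (log2 fold change 7.76 ± 0.16, and 5.68 in limma on log2(FPKM + 1)). PLK2, a stress-induced kinase, had 0 counts in all DMSO-treated libraries and 128, 132 and 154 with THZ1, at least 6.22 higher on the log2 scale against the floor of 3 counts per library. DUSP1, the early phosphatase of MAP kinases, was the gene called lower (−0.20 ± 0.08, adjusted p = 0.017), a call that was lost with RLE or upper quartile factors (adjusted p = 0.11 and 0.94), with DESeq2 (0.056), with at least 10 counts everywhere (0.41), without DMSO replicate 1 (0.065) and without THZ1 replicate 3 (0.056). TIPARP (−0.04 ± 0.14) and CD69 (0.35 ± 0.24) were not called. KLF4, CYR61, CTGF and PTGS2 were too low to test.

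Relatives of the listed genes were IER5L, EGR4 and WT1, none of which passed the filter in both treatments. This favours a higher call for the first pair and a lower call for WT1. IER5L, the paralog of IER5, had 5, 10 and 8 counts with DMSO and 538, 586 and 554 with THZ1 (log2 fold change 6.86 ± 0.17, adjusted p = 6.6e-26, and 4.99 in limma on log2(FPKM + 1)). EGR4, the remaining member of the EGR family, had 9, 9 and 3 counts and then 20, 24 and 14 (2.14 ± 0.41), but was not called in the deposited FPKM values (0.27, adjusted p = 0.26). WT1, a zinc finger relative of the EGR factors, fell from 49, 54 and 71 counts to 11, 20 and 5 (−1.57 ± 0.32). This value was −2.18 without THZ1 replicate 2, −1.21 without THZ1 replicate 3 and −3.12 in FPKM with a pseudocount of 0.1.

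The coregulators also split. NAB1, a corepressor of EGR proteins, fell from 450, 549 and 458 counts to 99, 82 and 85 (log2 fold change −1.76 ± 0.12), while NAB2, the other NAB corepressor and itself an EGR target, was higher (0.84 ± 0.12). RXRB, a nuclear receptor partner of NR4A proteins, was higher by 0.67 ± 0.07, and RXRA and RXRG were too low to test.

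Transcripts of the factors and kinases upstream of immediate early genes were called in both directions. Of 15 transcription factors and coactivators, 6 were called higher (40.0%, near the 43.5% of all genes tested), 8 lower (53.3%, against 41.1%) and 1 not, with a median log2 fold change of −0.32. SRF, the CArG box factor, had 960, 871 and 946 counts and then 1452, 1365 and 1268 (1.25 ± 0.08), and CRTC2, a CREB coactivator, was the highest (2.20 ± 0.07). CREB1 itself was the lowest, with 727, 870 and 703 counts and then 171, 153 and 157 (−1.56 ± 0.10), followed by MEF2A (−0.78 ± 0.08). Of 13 kinases tested from 14, 3 were called higher (23.1%), 7 lower (53.8%) and 3 not, with a median of −0.55. PRKD2 (1.59 ± 0.07) and PRKACA (1.35 ± 0.08), the catalytic subunit of protein kinase A, were the highest, and RPS6KA3 (−2.04 ± 0.12), an ERK-activated kinase, and PRKD3 (−1.94 ± 0.12) the lowest. Library sizes alone in place of TMM moved the median of all genes by −0.25 and lowered the number of factors called higher to 3, and the FPKM values lowered it to 2.

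Genes that report ERK output were also listed. Of the 8 tested from 10, 6 were called higher (75%, against 43.5% of all genes tested), 1 lower and 1 not, with a median log2 fold change of 1.68. EPHA2 and ETV4, counted among the 6, passed the filter only through the THZ1-treated libraries, which favours a higher call. In limma on FPKM, 4 were called higher and 2 lower. EPHA2, a receptor tyrosine kinase, had 0 counts with DMSO and 42, 31 and 29 with THZ1 (at least 4.20 higher on the log2 scale against the floor), and SPRY4, a feedback inhibitor of the pathway, was higher by 3.63 ± 0.20 (1.53 in limma on log2(FPKM + 1)). DUSP6, the ERK phosphatase, was not called (0.12 ± 0.08, adjusted p = 0.15). ETV5 was lower (−0.33 ± 0.12, adjusted p = 0.0094), a call lost with upper quartile factors (adjusted p = 0.26), with DESeq2 (0.055) and with at least 10 counts everywhere (0.11). CCND1 and EPHA4 were too low to test.

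**Figure D5:**
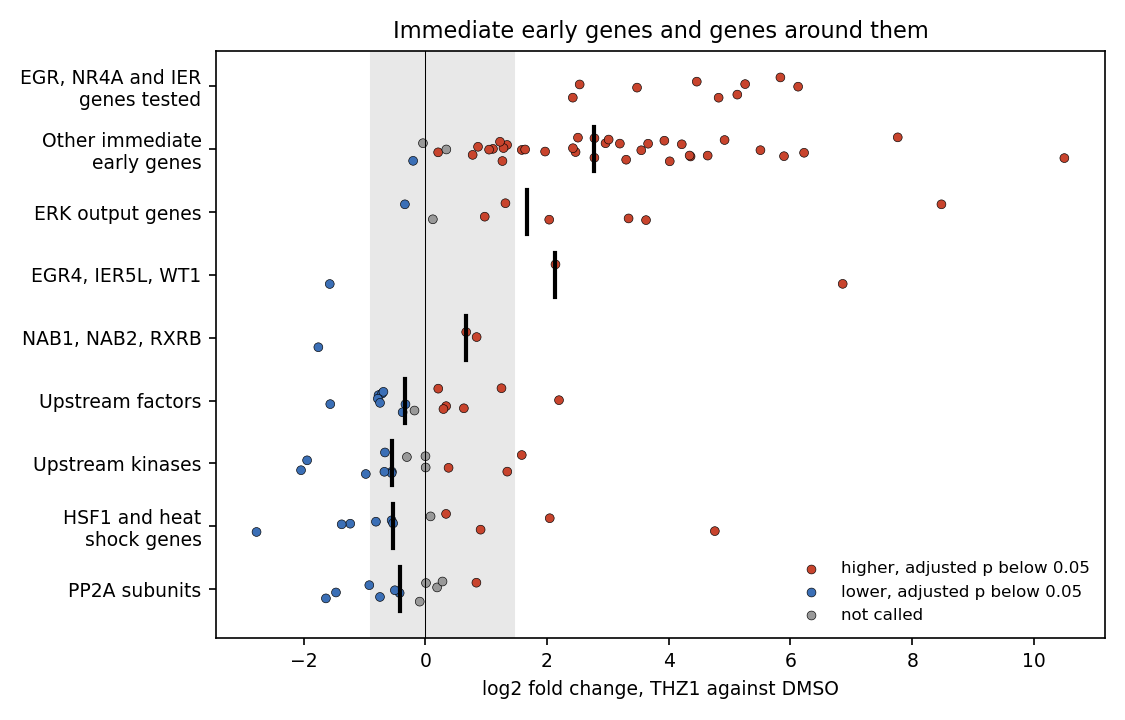
Log2 fold change of the genes tested in each list, with the median as a black bar (not drawn for the EGR, NR4A and IER genes), coloured by the call in edgeR's test. The grey band holds the middle of all genes tested, from the lower quartile at −0.90 to the upper quartile at 1.46. PLK2 and EPHA2, at 0 counts with DMSO, are drawn at their fitted values and not at their bounds.

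Gene structure was also set beside the change over the whole series. Among 748 protein-coding genes tested whose canonical transcript has 1 or 2 exons, 65.9% were called higher and the median log2 fold change was 1.05, against 36.3% and −0.20 over all 11929 protein-coding genes. Transcripts spanning up to 10000 bases had a median of 0.57 and longer ones −0.39. Across genes, which share their libraries and are not independent replicates, the Spearman correlation of the log2 fold change with the span was −0.351 and with AUUUA density it was −0.178. The 6 tested genes with at most 2 exons lay between 3.48 and 6.13, above the median of that structural class. Of these, EGR1, EGR2 and EGR3 passed the filter on low counts only through the THZ1-treated libraries, which favours a high value. The part of gene structure in the change of these genes was not tested.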

How the data were processed

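RNA-SEQ libraries of NALM6 cells, 3 treated with DMSO and 3 with THZ1, were analysed. The authors deposited raw counts per gene, obtained by mapping reads to GRCh37 with STAR and counting with htseq-count. Their processing notes list cutadapt, STAR, HTSeq and RSEM. The annotation and strand setting are not given in the sources used here. The authors also deposited RSEM FPKM values on a log2 scale, read here as log2(FPKM + 1). Libraries of 1 treatment have nearly the same sorted values in that table, by a step not given in the sources used here. The deposited p-values, FDR values and log2 fold changes are the authors' own comparison and were not used.

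Counts were filtered with filterByExpr by treatment (minimum count 10, minimum total 15, which required 1.03 CPM in 3 libraries), scaled by TMM and tested with edgeR's quasi-likelihood test, two-sided, with Benjamini-Hochberg adjustment over 16622 genes. A gene was called at an adjusted p below 0.05. The pipeline was tested on simulated data. Replicate libraries differed by more than sampling noise (chi-square per gene 1.78 to 8.61). For a gene with no library of a treatment above 3 counts, a bound was given.

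The 10 genes and the lists were chosen with earlier results of these data known. Named were all 10 genes, the 2 highest and 2 lowest of each list (all tested genes in lists of up to 5), overlapping genes, and markers near 0. CD69, RAG1, HSP90AB1, ETV4 and genes too low to test were named after their values were seen. Some results are not reported here.

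Alternatives tried were DESeq2, library sizes alone, upper quartile and RLE factors, no filter, at least 10 counts in every library, a replicate block, each library left out, and limma on deposited FPKM (pseudocount 1 or 0.1, with no filter or a mean FPKM of at least 0.1 or 1). Gene structure was taken from GENCODE and promoter sequences from RefSeq. Versions were edgeR 4.0.16, DESeq2 1.42.0 and limma 3.58.1 in R 4.3.3, and scipy 1.17.1 and matplotlib 3.10.9 in Python 3.11.15.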

Additional observations from a re-analysis of the deposited data

How the results depend on the processing

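All 9 tested immediate early genes were called higher in every fit that included them. The number called was 9 in the count fits, except 6 with at least 10 counts in every library, where EGR2, EGR3 and NR4A3 were not tested, and 8 in the FPKM fits, where NR4A3 has no value. With 1 library left out it stayed at 9, and the number lower was 0 in all fits. Over all genes, 5151 to 9944 were called higher and 5421 to 7985 lower, and over the fixed lists 49 to 66 and 26 to 37. The median of all genes moved by −0.31 to 0.19 on the log2 scale between scalings. The labels do not say whether libraries were paired by replicate number, and the main fit used no pairing. Deviations of same-numbered libraries correlated at −0.00400, 0.000969 and 0.0206, against −0.0178 to 0.0170 for libraries with different numbers. These values cannot show whether cultures were paired. With the replicate block, 9 of the 9 genes were again called higher, EGR1 at a log2 fold change of 6.13. Depth limits EGR2, EGR3, NR4A3 and ARC most, with at most 6 counts in any DMSO-treated library. Among the 9 tested genes and the highest and lowest genes of each list except the marker lists, no result reversed. This does not hold for every listed gene. Of the other immediate early genes, 4 were called lower in the FPKM values. Only DUSP1, TIPARP and CD69 were not called higher in the main fit, so the 4 include a gene called higher there. TIPARP was called lower in the FPKM values (−0.49, adjusted p = 0.013), DUSP6 higher with RLE factors (0.19, adjusted p = 0.028), and PPP2R5B higher with upper quartile factors (0.48, adjusted p = 0.015), and the cause was not tested.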

Other observations

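Heat shock genes and subunits of PP2A, the phosphatase that IER5 and IER3 are known to bind, are reported here as values. Of 11 genes tested from a list of HSF1 and its targets, 4 were called higher (36.4%, against 43.5% of all genes tested), 6 lower (54.5%, against 41.1%) and 1 (HSP90AB1) not. Across the alternatives 3 to 6 were called higher, 5 in each fit without 1 library, and the median log2 fold change was −0.53, against 0.03 over all genes tested. HSPA1A, an inducible chaperone of the HSP70 family, had 14, 3 and 4 counts with DMSO and 119, 113 and 126 with THZ1 (4.76 ± 0.28). It passed the filter on low counts only through the THZ1-treated libraries, and its value was 5.70 without DMSO replicate 1 and 2.97 in limma on log2(FPKM + 1). HSPA1B had 346, 346 and 335 and then 864, 839 and 914 (2.05 ± 0.08). These paralogs are nearly identical, so how their reads were divided is uncertain. HSPD1, the mitochondrial chaperonin, fell by 2.77 on the log2 scale, and HSP90AA1, a cytosolic chaperone, by 1.37.

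Of 11 PP2A subunit genes tested, 1 was called higher (9.09%, against 43.5% of all genes tested), 6 lower (54.5%, against 41.1%) and 4 not, with a median of −0.42. The scaffold subunits PPP2R1A and PPP2R1B had log2 fold changes of −1.63 ± 0.08 and −1.47 ± 0.10. The regulatory subunit PPP2R5D was the gene called higher (0.84 ± 0.07), and PPP2R5B was not called (0.28 ± 0.18). With upper quartile factors the number called higher was 4.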
